A study of Mus musculus with 32 samples.

Results

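The interneuron lineage genes are 9 genes that mark cortical interneurons and their precursors: Dlx1, Dlx2, Dlx5, Dlx6, Dlx6os1, Lhx6, Gad1, Gad2 and Slc32a1. They were picked by symbol from the 32285 genes listed for each library. All 9 passed the filter on low counts. Single-cell RNA was counted in dorsal telencephalon, the tissue that forms the cerebral cortex, with its medial part cut away, of C57BL/6J mouse embryos at 4 stages, the earliest E12.5 and the latest E17.5, with E14.5 and E16.0 between them. WT embryos were set against embryos heterozygous for Chd8, a chromatin remodeller gene (Chd8+/-, called het here), with 4 libraries per genotype and stage, or 32 in all. Each WT embryo was matched to a het littermate of its own sex, and the pair is named M1 or M2 for males and F1 or F2 for females, and a library holds the tissue of 1 embryo. Whether different pairs of a stage came from the same litter is not stated, so a difference between pairs may be one of litter, sex or anything else that the pairs do not share.

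Cortical interneurons release the inhibitory transmitter GABA. They are not born in the dorsal telencephalon: they arise in the ganglionic eminences of the ventral telencephalon and migrate tangentially into the cortex while it forms. Dlx1, Dlx2, Dlx5 and Dlx6 encode homeodomain transcription factors that drive this lineage, with Dlx1 and Dlx2 acting first. Dlx6os1, also called Evf2, is a long non-coding RNA read from the opposite strand to Dlx6. Lhx6 encodes a LIM-homeodomain factor of interneurons from the medial ganglionic eminence and is off in those from the caudal one. Gad1 and Gad2 encode the enzymes that make GABA from glutamate, and Slc32a1 encodes the transporter that loads it into vesicles.

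The Dlx genes sit tail to tail in pairs. In the GENCODE M21 annotation of GRCm38, Dlx1 (chr2:71528113-71533981, plus strand) and Dlx2 (chr2:71543408-71546754, minus strand) lie 9.43 kb apart. Dlx6 (chr6:6863334-6868568, plus strand) and Dlx5 (chr6:6877805-6882085, minus strand) lie 9.24 kb apart, and Dlx6os1 (chr6:6820189-6871592, minus strand) spans the whole of Dlx6, 5235 bases. Lhx6 (chr2:36081953-36105408, minus strand), Gad1 (chr2:70553072-70602014, plus strand), Gad2 (chr2:22622205-22693874, plus strand) and Slc32a1 (chr2:158610767-158615748, plus strand) are also on chromosome 2. Dlx1, Gad1 and Slc32a1 overlap the counted antisense genes Dlx1as, Gad1os and Gm14205. Whether counting used strand is not given in the sources used here, so the values of Dlx1, Dlx6, Dlx6os1, Gad1 and Slc32a1 could hold reads of the gene on the other strand.

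RefSeq (GRCm38.p6) gave start sites for 7 of the 9 genes, 10 entries in all. The 250 bases before a start are shown for 3 genes whose values part company in the results: Dlx2, detected in some progenitors, Dlx6os1, of the second Dlx pair, and Lhx6, low in some clusters of interneuron-like cells. Capitals mark TAATTA, the core bound by many homeodomain proteins, and CAGCTG, an E-box core bound by helix-loop-helix proteins. Each reads the same on both strands, and neither contains the other. The windows are chr2:71546755-71547004 for Dlx2, chr6:6869534-6869783 for Dlx6os1, which falls inside the longer GENCODE span of that gene, and chr2:36105409-36105658 for Lhx6. All 3 are on the minus strand and are written 5′ to 3′.
Dlx2: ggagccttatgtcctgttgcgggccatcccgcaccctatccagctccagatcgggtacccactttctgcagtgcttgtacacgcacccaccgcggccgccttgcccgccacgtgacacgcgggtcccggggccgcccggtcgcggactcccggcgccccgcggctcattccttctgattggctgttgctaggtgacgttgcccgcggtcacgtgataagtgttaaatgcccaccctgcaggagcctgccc
Dlx6os1: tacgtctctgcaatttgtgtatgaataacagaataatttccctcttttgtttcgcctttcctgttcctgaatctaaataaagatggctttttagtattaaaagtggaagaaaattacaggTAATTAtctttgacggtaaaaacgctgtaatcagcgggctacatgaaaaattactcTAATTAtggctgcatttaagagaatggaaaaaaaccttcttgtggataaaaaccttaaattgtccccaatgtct
Lhx6: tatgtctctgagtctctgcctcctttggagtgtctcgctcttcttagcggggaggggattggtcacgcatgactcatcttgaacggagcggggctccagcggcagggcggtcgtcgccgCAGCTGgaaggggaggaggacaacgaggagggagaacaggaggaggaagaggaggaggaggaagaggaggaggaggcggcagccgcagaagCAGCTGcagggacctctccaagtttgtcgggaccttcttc
The Dlx6os1 window held TAATTA at 130 and at 74 bases before the start, and 33.2% of its bases were G or C. TAATTA occurred in 4.84% of 32851 promoter windows of this length, whose median was 52.4% G or C. Neither this share nor that of CAGCTG below was matched for base content. The Lhx6 window held CAGCTG at 131 and at 40 bases before the start, at 61.6% G or C, and 13% of all windows held that word. The Dlx2 window, at 66.4% G or C, held neither. The windows shown are those of entry 1 of each gene. Those of Lhx6 entries 2 and 3 held neither word, and that of Dlx6os1 entry 2 held TAATTA at 174 bases before its start. These matches describe the letters only, since binding was not measured.

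The 32 libraries held 145082 barcodes, and 138226 cells were retained after filters and removal of doublets, between 2399 and 6951 per library, with a median of 3966 to 10543 UMIs per cell. A UMI stands for 1 captured RNA molecule. Levels below are UMIs of a gene per 1000000 UMIs of all retained cells of a library (CPM), which are not scaled by gene length, so levels are compared within a gene and not between genes. Libraries shared at most 66 cell barcode sequences between any pair of them, with a median of 27. Chd8 itself was lower in the het library in 15 of 16 pairs, with a median of 51.0 CPM in WT and 39.3 CPM in het libraries. The E17.5 M2 pair stood above the other pairs of its stage in the 9 genes. Some of the member calls, counts and pair ratios that rest on it are also given without it, as stated where this was done. Where 4 libraries are set against 4, an exact permutation test cannot give a two-sided p below 0.0286. A p-value rests on the spread between libraries of single embryos or, with the pairs in the fit, on the spread left within pairs.

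The mean sum of the 9 genes was lowest at E12.5 in both genotypes, but libraries of that stage overlapped those of E14.5 and E16.0. In WT, 6 of the 9 genes rose to E14.5, where 25.3% of all genes were called higher, and none was called from E14.5 to E16.0, where 11.7% were called in either direction. From E16.0 to E17.5, 2 of them, Lhx6 and Dlx1, rose, where 7.57% of all genes were called higher. All 9 had a positive difference at that step. The sum of the 9 genes in WT libraries M1, M2, F1 and F2 was 34.2, 12.7, 22.9 and 2.05 CPM at E12.5, and 107, 109, 33.4 and 69.7 CPM at E14.5. It was 43.6, 47.6, 106 and 28.8 CPM at E16.0, and 96.7, 336, 103 and 211 CPM at E17.5. The E16.0 libraries lay within the range of E14.5 or just below it, while M2 and F2 of E17.5 stood above every library of the earlier stages. In a sum over all cells alone, fewer interneurons and less RNA per interneuron cannot be told apart. Shares of interneuron-like cells and levels within them are given below.

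Lhx6, the factor of medial ganglionic eminence interneurons, had the largest log2 difference of the 9 between E12.5 and E14.5 in WT. Its WT levels in M1, M2, F1 and F2 were 0.0192, 0.128, 0.174 and 0.195 CPM at E12.5 and 9.99, 8.05, 4.39 and 6.37 CPM at E14.5. In het libraries they were 0.178, 0.0168, 0 and 0.157 CPM and then 9.75, 4.98, 3.12 and 4.45 CPM, where the library with 0 counts allows up to 0.158 CPM (3 counts, counting error only). All libraries of the later stage lay above all of the earlier one in both genotypes. The rise was 5.62 on the log2 scale in WT (SE 0.53, adjusted p = 9.38e-10, edgeR quasi-likelihood test with Benjamini-Hochberg adjustment over 15898 genes) and 5.79 in het libraries (SE 0.61, adjusted p = 5.82e-09). At E12.5 only 41 Lhx6 UMIs were counted in all 8 libraries together, and 1 of them lay in an interneuron-like cell. Endothelial cells held 22 of the 41 (6.46 CPM in that cluster) and unnamed clusters 18, so the level at the earlier stage was mostly not that of interneuron-like cells.

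The genes of GABA synthesis and loading also rose. In WT libraries M1, M2, F1 and F2, Gad2 was at 3.30, 0.383, 1.74 and 0.0650 CPM at E12.5 and at 14, 13.5, 4.89 and 9.79 CPM at E14.5, with no overlap. Slc32a1 was at 1.05, 0.191, 0.434 and 0.0650 CPM and then at 8.42, 6.75, 1.89 and 4.59 CPM, again with no overlap. The log2 rises in WT were 2.84 for Gad2 (SE 0.70, adjusted p = 0.00106), 3.53 for Slc32a1 (SE 0.74, adjusted p = 0.000215) and 3.17 for Gad1 (SE 0.84, adjusted p = 0.00232), by edgeR.

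Among the genes of the Dlx loci, Dlx5 (log2 rise 2.14, SE 0.79, adjusted p = 0.0231) and the RNA Dlx6os1 (2.12, SE 0.84, adjusted p = 0.0339) passed the edgeR test in WT. Not called were the other 3: Dlx1 had a log2 difference of 1.58 (SE 0.70, adjusted p = 0.0572), Dlx6 of 1.59 (SE 0.71, adjusted p = 0.0602) and Dlx2 of 1.18 (SE 0.68, adjusted p = 0.142). Dlx2 was already at 11.2, 6.06, 9.50 and 1.20 CPM at E12.5, against 21.3, 24.6, 7.29 and 15.3 CPM at E14.5, so its groups overlapped. In all, 6 of the 9 genes were called higher at E14.5 in WT, where 25.3% of all 15898 genes were called higher and 53.3% in either direction. In het libraries 5 of the 9 were called (Dlx5, Lhx6, Gad1, Gad2 and Slc32a1), against 28.1% of all genes called higher and 58.1% in either direction. Leaving out WT M2 or F2 at E12.5, or WT M1 or M2 at E14.5, left 4 of 9 called in WT. Without the E17.5 M2 pair, which changes the estimate of the spread, 8 of 9 were called, Dlx1 (adjusted p = 0.0426, edgeR) and Dlx6 (adjusted p = 0.0281, edgeR) among them. The share of all genes called in these fits with libraries left out is not given here.

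From E14.5 to E16.0 none of the 9 genes was called in WT, where 11.7% of all genes were, or in het libraries (9.74%). At an unadjusted p below 0.05, 2 of the 9 passed in WT and 0 in het, and DESeq2 called 0 in WT. Of all 15898 genes, 4652 passed at that threshold in WT and 4375 in het. All 9 had a negative log2 difference in WT, from -1.52 (Slc32a1, SE 0.67) to -0.29 (Dlx6, SE 0.68), with a median of -0.59. In het libraries 5 of 9 were positive, with a median of 0.07.

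From E16.0 to E17.5 Lhx6 rose again. Its WT levels went from 5.02, 4.64, 6.57 and 1.89 CPM to 10.1, 19.6, 12.4 and 11 CPM, and its het levels from 1.92, 5.6, 5.75 and 3.82 CPM to 10.7, 18.9, 13.2 and 15.2 CPM, in the order M1, M2, F1 and F2. The groups did not overlap in either genotype. The log2 rise was 1.62 in WT (SE 0.40, adjusted p = 0.00498, edgeR) and 1.76 in het libraries (SE 0.40, adjusted p = 0.00173, edgeR). Dlx1, a factor of early interneuron precursors, was also called in WT (log2 rise 2.02, SE 0.69, adjusted p = 0.0411, edgeR). These 2 genes compare with 7.57% of all genes called higher in WT (17.4% in either direction), and the 1 called in het libraries, Lhx6, with 13.2% (27.0% in either direction). Without the E17.5 M2 pair the Dlx1 rise was 1.53 (adjusted p = 0.116) and the Lhx6 rise 1.35 (adjusted p = 0.0224), which left 1 gene called. The WT groups of Dlx1 overlapped. The difference was positive in 9 of 9 genes in both genotypes, with a median of 1.66 in WT and 1.20 in het libraries on the log2 scale. An unadjusted p below 0.05 was given by edgeR for 8 of them in WT and 1 in het libraries. Over all 15898 genes it was given for 4925 in WT and 6430 in het libraries. The 4 libraries of E17.5 lay wholly above those of E16.0 for Lhx6, Gad1 and Slc32a1 in WT, and for these and Dlx6os1 and Gad2 in het libraries. The share of all genes without overlap between stages was not computed, so whether this is unusual cannot be told. The WT count of 2 called genes became 1 on leaving out WT M1, M2 or F2 at E16.0 or WT M2 or F2 at E17.5. It was 5 without WT F1 at E16.0 and 4 without het M2 at either E12.5 or E17.5.

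**Figure D1:**
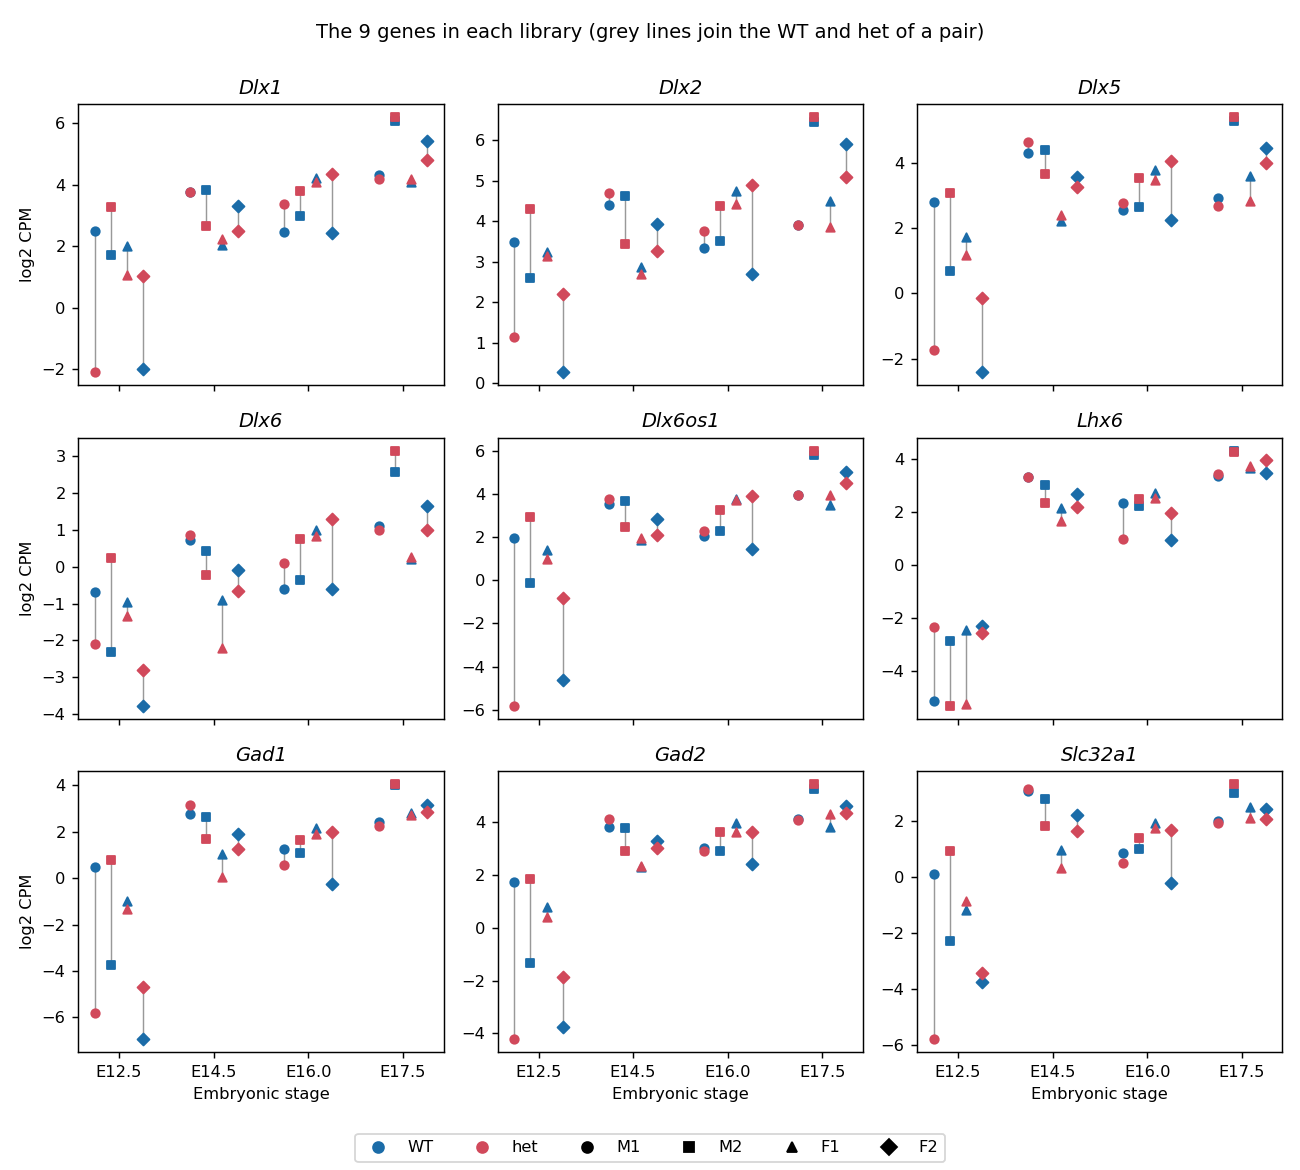
Level of each of the 9 genes in the 32 libraries, as log2 CPM with 0.5 UMI added, by stage. Blue points are WT and red points het, the marker shape gives the pair, and grey lines join the WT and the het of a pair. At E12.5 the lines of the M1 and M2 pairs are long for most genes, and Lhx6 is lower in all libraries than at any later stage. At E17.5 both libraries of the M2 pair are the highest for all 9 genes.

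The question whether Chd8 heterozygosity shifts these genes was asked at each stage and over the stages. None of the 9 genes differed between het and WT by the edgeR test at E12.5 (0.296% of all genes called), at E14.5, E16.0 or E17.5 (0.0% each), on average over the stages (0.302%) or in the test that the genotype difference varies with stage (0.0%). At an unadjusted p below 0.05 the number was likewise 0 of 9 in each of these 6 comparisons, and DESeq2 called 0 in each. Of all 15898 genes, between 243 (E14.5) and 2428 (E12.5) had such a p. With the pairs in the fit 0 of the 9 were called, and 1 had an unadjusted p below 0.05 at E16.0. Chd8 itself was not called without pairs, at any stage or averaged over them (log2 difference -0.28, adjusted p = 0.118, edgeR). With the pairs in the fit its averaged difference was called (-0.29, adjusted p = 0.00481, edgeR). A count of 0 in the fit without pairs thus does not exclude differences of that size. The WT and the het range overlapped for all 9 genes at all 4 stages, while 3.97% of combinations of gene and stage over all genes did not overlap.

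Averaged over the stages, the log2 difference between het and WT lay between -0.23 for Lhx6 (SE 0.27) and 0.31 for Dlx6 (SE 0.34), with 8 of 9 positive and a median of 0.09, beside a median of -0.0019 over all genes. As a mean over the 16 pairs it was negative for Lhx6 (-0.26), Slc32a1 (-0.18), Gad1 (-0.042) and Gad2 (-0.0087), and positive for the others. The interval of the fitted difference was wide. For Dlx2 the difference was 0.11 with a 95% interval of -0.57 to 0.79, and for Gad2 it was 0.07 with an interval of -0.60 to 0.74. Over the 9 genes the intervals reached from -0.78 to 1.06, so smaller differences could not be resolved with these libraries. This fit leaves out the pairs, and with the pairs in the fit the intervals reached from -0.72 to 0.86. By stage, in the fit without pairs, the median log2 difference of the 9 genes was 0.41 at E12.5 (8 of 9 positive), -0.37 at E14.5 (0 of 9), 0.59 at E16.0 (8 of 9) and -0.09 at E17.5 (4 of 9). The sign in this fit was thus mostly shared within E12.5, E14.5 and E16.0, not within E17.5, and differed between stages, with none past the test. As means over the 4 pairs, the log2 differences at E12.5 were positive for Dlx2, Dlx6 and Gad1 and negative for the others.

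Partners of a pair differed in either direction. At E12.5 the sum of the 9 genes was 34.2 CPM in WT M1 and 3.11 CPM in its het partner, but 12.7 CPM in WT M2 and 54.3 CPM in het M2. It was 22.9 and 17.7 CPM in the F1 pair and 2.05 and 8.73 CPM in the F2 pair, WT first. The het library was thus the lower one in M1 and F1 and the higher one in M2 and F2.
Gad2 followed the same split at E12.5, with 3.30 against 0.0357 CPM in M1 and 0.383 against 3.62 CPM in M2. In het M1 no UMI of Dlx6os1, Gad1 or Slc32a1 was counted, which allows up to 0.107 CPM each, and WT F2 had no UMI of Gad1 (up to 0.0488 CPM).

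At E14.5 the M2 pair had 109 CPM in WT and 55.5 CPM in het, and F2 had 69.7 and 47.8 CPM. M1 had 107 and 125 CPM and F1 33.4 and 30.9 CPM, so het was lower in 3 of 4 pairs. At E16.0 the F2 pair had 28.8 CPM in WT and 107 CPM in het, while M1 had 43.6 and 48.9, M2 47.6 and 81.2 and F1 106 and 90.0 CPM. WT F2 was the lowest of the 8 libraries of E16.0 and its het partner the highest: Dlx2 was at 6.48 CPM in the first and at 29.7 CPM in the second.
The log2 ratio of the het to the WT sum ran from -0.49 (F2) to 0.15 (M2) at E17.5. At E12.5 it ran from -3.46 (M1) to 2.09 (M2), though the F1 pair of that stage differed by only -0.37. The WT and het sums of E17.5 were 96.7 and 93.0 CPM in M1, 336 and 373 CPM in M2, 103 and 101 CPM in F1, and 211 and 150 CPM in F2.

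**Figure D2:**
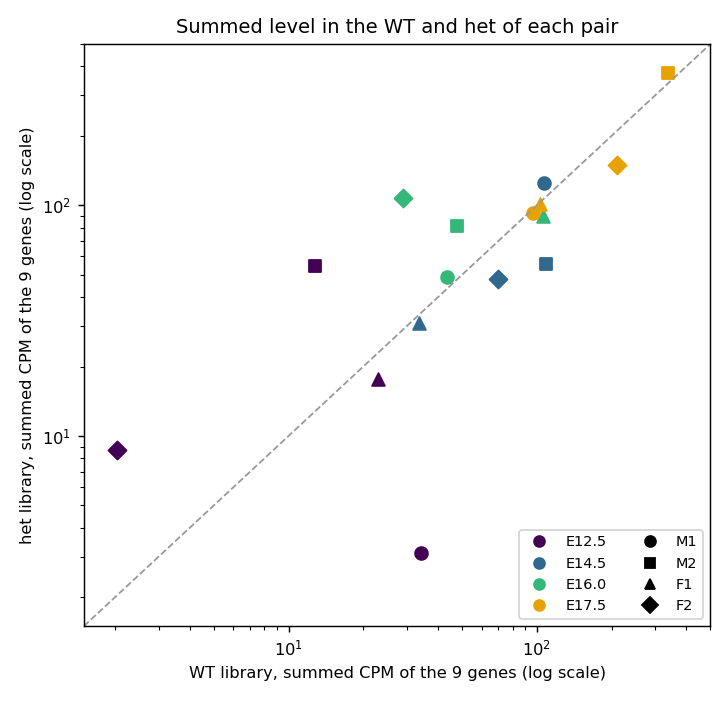
Summed CPM of the 9 genes in the WT library (x axis, log scale) and the het library (y axis, log scale) of each of the 16 pairs. Colour gives the stage and shape the pair, and the dashed line marks equal values. The pairs farthest from the line are M1, M2 and F2 of E12.5 and F2 of E16.0; at E17.5 M1, M2 and F1 lie close to it and F2 (211 and 150 CPM) somewhat below.

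Pairs and genotype were described side by side. A ratio of the highest to the lowest of 4 pair means is above 1 by construction, and with no pair effect too. Between the highest and the lowest pair of a stage, the pair mean of the summed level differed 6.22-fold at E12.5 (M2 over F2), 3.61-fold at E14.5 (M1 over F1), 2.11-fold at E16.0 (F1 over M1) and 3.74-fold at E17.5 (M2 over M1), which was 1.90-fold (F2 over M1) without the M2 pair. The highest pair mean of E12.5 joined 12.7 CPM in the WT and 54.3 CPM in the het library of M2. Over the 16 pairs, the deviations of WT and het from their group means had r of 0.19 for the log2 sum, with a mean square of 1.49 between and 1.02 within pairs. The group means of the sum in WT and het were 18.0 ± 13.8 and 21.0 ± 23.0 CPM at E12.5 and 79.7 ± 35.7 and 64.8 ± 41.5 CPM at E14.5 (SD, n = 4). For E16.0 these means were 56.4 ± 33.8 and 81.8 ± 24.5 CPM, and for E17.5 187 ± 113 and 179 ± 132 CPM. With pair and genotype in 1 fit, 7 of the 9 genes differed between pairs of a stage by the edgeR joint test, where 48.2% of all genes did. Dlx6 had the lowest adjusted p (0.00469), followed by Dlx2 (0.0136) and Dlx5 (0.0229). Dlx1, Dlx6os1, Lhx6 and Slc32a1 had adjusted p between 0.0470 and 0.0479, and Gad1 (0.0570) and Gad2 (0.0873) were not called. Partners were not alike in all of these genes. Over the 16 pairs, the deviations of WT and het from their group means had r of 0.54 for Dlx6, 0.39 for Dlx2 and 0.19 for Dlx5, but 0.041 for Dlx1, -0.055 for Slc32a1, -0.078 for Dlx6os1 and -0.18 for Lhx6. For the last 3 the mean square within pairs was above that between pairs. Rank correlations of the same deviations were 0.30 for Dlx1 and for Slc32a1, 0.35 for Dlx6os1 and 0.071 for Lhx6. Some log2 values of E12.5 rest on few or 0 UMIs. The SD of log2 het over WT at E12.5 and E17.5 was 5.30 and 0.42 for Dlx6os1. It was 3.84 and 0.33 for Slc32a1, and 2.56 and 0.22 for Lhx6.

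By stage, the pair differences passed the edgeR test in 0 of the 9 genes at E12.5 (1.24% of all genes), in 1, Slc32a1 (adjusted p = 0.0489), at E14.5 (32.4%), in 0 at E16.0 (1.18%) and in 4 at E17.5 (41.1%). Beside the counts of 0, 8 of the 9 had an unadjusted p below 0.05 at E12.5 and 1 at E16.0, and DESeq2 called 0 at both. Of all 15898 genes, 2422 had such a p at E12.5 and 2404 at E16.0. The E12.5 count was 6 without WT M1 or WT M2, 4 without het M1 of that stage and 5 without the filter on low counts. The E14.5 count of 1 changed in 27 of the 32 fits that left out a library, to between 0 and 7, and was 6 without the filter. The E16.0 count was 1 without WT M1 of that stage. The 4 genes of E17.5 were Dlx6 (adjusted p = 0.00165), Dlx2 (0.00406), Dlx5 (0.0183) and Dlx1 (0.0330), a share of the 9 close to that of all genes. In WT and het, Dlx2 was at 15 and 14.9 CPM in M1, 87.1 and 95.1 CPM in M2, 22.5 and 14.6 CPM in F1, and 60.3 and 34.2 CPM in F2. Lhx6 in the same pairs was at 10.1 and 10.7, 19.6 and 18.9, 12.4 and 13.2, and 11 and 15.2 CPM. The M2 pair was highest in both genes, and the highest pair was 6.08 times the lowest for Dlx2 and 1.86 times for Lhx6. Without the M2 pair these ratios were 3.16 and 1.26.

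The pair calls changed with most single libraries. Without the E17.5 M2 pair 1 of the 9 genes, Dlx6 (adjusted p = 0.0447), was called over the stages and 0 at E17.5. When pairs of the same sex only were set against each other, 3 of 9 were called (Dlx2, Dlx5 and Dlx6), against 43.2% of all genes. The count over the stages was 5 to 9 when the library left out was het M1 or M2 or WT M1, M2 or F1 of E12.5, or either library of the E16.0 F2 pair, and 1 to 4 without any single one of the other 25 libraries. On the stages from E14.5 on alone it was 9. The share of all genes called is not given for that fit, nor for those without a library or the M2 pair. These member counts thus cannot be set against all genes. With the start of the label code, whose meaning is not stated, in place of the pair, 5 of 9 were called against 60.2% of all genes.

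The 9 genes were then followed into cell classes. Cells were clustered without the 9 genes, and clusters were called interneuron-like from other markers (such as Sp9, Sst, Nxph1, Htr3a and Adarb2). The 9 genes were thus not used to name clusters, but they vary with genes that were. Interneuron-like cells numbered 452 at E12.5 (222 in WT and 230 in het libraries), 1073 at E14.5, 1150 at E16.0 and 2011 at E17.5. They held 91.3% of all Lhx6 UMIs, 90.3% of those of Slc32a1, 87.4% of Gad1, 81.2% of Dlx6os1, 76.1% of Gad2 and of Dlx5, 74.4% of Dlx6, 65.6% of Dlx1 and 64.8% of Dlx2. From E14.5 on the median interneuron-like cell had UMIs of 5 or 6 of the 9 genes, and at most 0.696% of these cells had none. At E12.5 the label held less well: 53.3% of the 452 cells had no UMI of any of the 9, the median was 0, and the cluster was led by Nts, Sp9 and Tfap2e. Its size there also hung on the clustering resolution: with finer clusters (resolution 2) the class held 100 WT and 101 het cells, and with coarser ones (0.5) 50 and 56. E12.5 was left out of the fits within interneuron-like cells.

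At E17.5 interneuron-like cells fell into a pair of clusters that differed in these genes. Cluster 9 (1231 cells), led by Sst, Maf and Nxph1, had Lhx6 at 491 ± 79.8 CPM (SD, n = 8 libraries). Cluster 14 (780 cells), led by Adarb2, Htr3a and Prox1, which are known from caudal ganglionic eminence interneurons, had Lhx6 at 8.05 ± 6.82 CPM. The ranges were 387 to 634 and 0 to 17.9 CPM, far apart.
Dlx1 was at 346 ± 30.8 CPM in cluster 9 and at 803 ± 139 CPM in cluster 14, and Dlx6os1 at 287 ± 55.2 and 896 ± 202 CPM, in each case with no overlap between the clusters over the 8 libraries. Dlx2 (483 ± 129 and 615 ± 190 CPM) and Gad2 (421 ± 64.2 and 359 ± 95.8 CPM) overlapped, while Gad1 was at 150 ± 11.3 and 218 ± 34.0 CPM and Slc32a1 at 126 ± 9.14 and 100 ± 18.3 CPM. These differences between clusters are given as values with no test, since Lhx6 and the Dlx genes vary together with the genes that formed the clusters.

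At E16.0 Lhx6 also differed between the 2 interneuron-like clusters. Cluster 13 (1024 cells, led by Sst and Nxph1) had Lhx6 at 307 ± 90.1 CPM (n = 8), and the small cluster 19 (126 cells, led by Sp9, Sp8, Gsx2 and Helt) at 1.23 ± 2.47 CPM in the 4 libraries with at least 20 such cells. In cluster 19, Dlx1 was at 755 ± 97.9 CPM and Gad1 at 66.6 ± 28.8 CPM, beside 414 ± 54.5 and 161 ± 29.6 CPM in cluster 13. Cluster 19 also carried markers of ventral progenitors, for which its mean fold was the highest of all classes. At E14.5 a single interneuron-like cluster, led by Sst and Nxph1, had pooled Lhx6 of 296 CPM.

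At E17.5 an unnamed cluster of 1469 cells, cluster 7, with Olig2, Helt, Egfr and Gsx2 among its leading genes, also carried Dlx RNA. Dlx2 there ran from 30.7 to 353 CPM over the 8 libraries (154 ± 140) and Dlx1 was at 108 ± 86.5 CPM. Lhx6 was at 1.11 ± 1.31 CPM, Slc32a1 at 4.39 ± 5.19 CPM and Gad2 at 33.3 ± 18.0 CPM. Over pooled cells Slc32a1 was at 4.92 CPM there, above the at most 0.758 CPM of the other clusters that were not interneuron-like, apart from cluster 17 (4.45 CPM, from 3 UMIs).

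**Figure D3:**
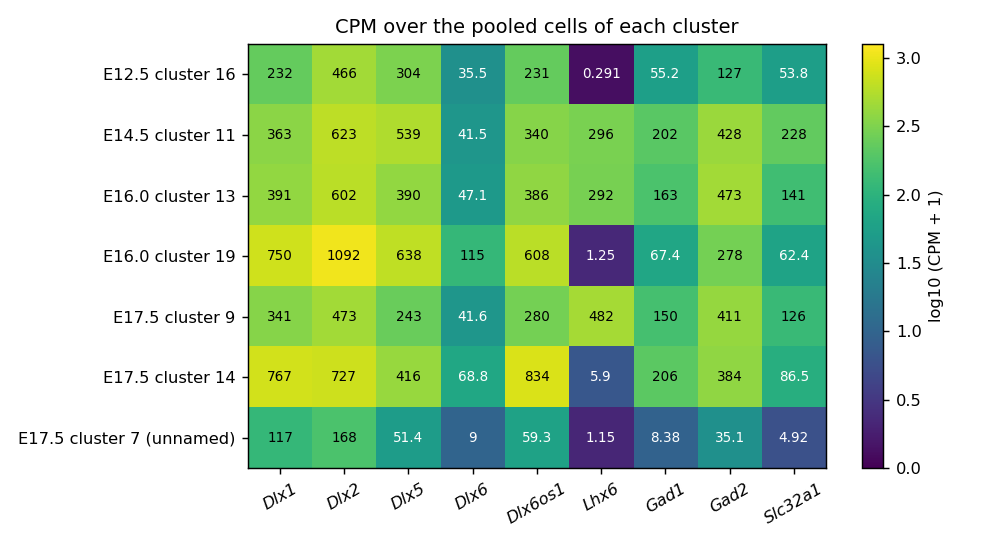
CPM of each of the 9 genes over the pooled cells of the interneuron-like clusters of each stage and of the unnamed E17.5 cluster 7. Cells of the map show the CPM, and colour gives log10 of CPM + 1. Lhx6 is low in E12.5 cluster 16, E16.0 cluster 19, E17.5 cluster 14 and cluster 7, while the Dlx genes are high in the first 3 of these.

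Radial glia and intermediate progenitors held part of the remaining UMIs. In radial glia, the dividing stem cells of the cortex, Dlx2 was at 8.29 ± 4.43 CPM at E12.5 (range 1.81 to 15.2, n = 8), with 806 of the 3074 Dlx2 UMIs of that stage. Pooled over libraries, Dlx2 of that stage was at 5.36 to 19.4 CPM in the 3 radial glia clusters, at 0.711, 0.587 and 1.10 CPM in red blood cells, endothelial cells and fibroblasts, and at 0.551 to 2.91 CPM in the unnamed clusters. Free RNA as a source was not tested. Dlx1 was at 3.07 ± 2.30 CPM there, whereas Dlx5 was at 0.456 ± 0.354, Gad2 at 0.296 ± 0.224 and Gad1 at 0.0261 ± 0.0737 CPM.
In intermediate progenitors, the dividing daughters of radial glia, Gad2 was at 0.951 ± 1.08, 3.95 ± 1.57, 9.15 ± 2.05 and 12.9 ± 4.11 CPM from the first stage to the last. These values came from some clusters of the class: at E16.0 pooled Gad2 was at 16.1 and 13.8 CPM in clusters 9 and 10 but at 1.10 and 0.827 CPM in clusters 7 and 14. At E14.5 it was at 9.71 CPM in cluster 10 and at 1.07 and 0.567 CPM in clusters 8 and 9, and at E17.5 at 21.0 CPM in cluster 12 and 4.11 CPM in cluster 8. Dlx2 was also highest in those clusters: at E14.5 it was at 24.9 CPM in cluster 10 and at 1.00 and 3.65 CPM in clusters 8 and 9, and at E16.0 at 27.4 and 54.4 CPM in clusters 9 and 10 and at 1.45 and 12.1 CPM in clusters 7 and 14. Dlx6os1 (8.64 CPM) and Slc32a1 (1.5 CPM) of E14.5 cluster 10 were above clusters 8 (0.286 and 0.0715 CPM) and 9 (1.46 and 0.0811 CPM). The part of interneuron-lineage RNA or cells in the Gad2 level of this class was not tested. Radial glia had Gad2 at 0.604 ± 0.325, 0.887 ± 0.427 and 3.27 ± 2.34 CPM from E14.5 on. The libraries of the 2 classes did not overlap at E14.5 (1.19 to 5.76 against 0.276 to 1.04 CPM) or E16.0 (5.72 to 12.5 against 0.266 to 1.43 CPM) and overlapped at E17.5.
Gad1 in intermediate progenitors was at 0.453 ± 0.368 CPM at E16.0 and 1.20 ± 0.71 CPM at E17.5, and Slc32a1 at 0.520 ± 0.471 and 0.239 ± 0.371 CPM. In interneuron-like cells of E16.0, Gad2 was at 443 ± 56.9 and Gad1 at 143 ± 26.3 CPM, and their UMIs numbered 1780 and 592, beside 447 and 22 in intermediate progenitors. At E16.0 the 447 Gad2 UMIs of the class lay in 4.24% of its cells on average, while 1133 Dlx2 UMIs lay in 2.91%.

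Cells with at least 1 Gad2 UMI, called Gad2-detected, gave a view that does not depend on clusters. With every cell thinned to 2000 UMIs, Gad2-detected cells made up 0.322% ± 0.317 of WT and 0.280% ± 0.338 of het cells at E12.5 (SD over 4 libraries, as in the values that follow). The shares were 2.37% ± 0.842 in WT against 1.91% ± 0.991 in het cells at E14.5, and 1.86% ± 0.736 against 2.08% ± 0.602 at E16.0. By E17.5 they had reached 4.58% ± 1.97 against 4.73% ± 2.42. Without thinning it was 3.80% and 3.20% at E14.5 and 7.27% and 7.36% at E17.5. Averaged over stages, het minus WT was -0.0324 percentage points (p = 0.933, two-sided permutation test within stage), and het was higher in 8 of 16 pairs. By stage the exact permutation p lay between 0.514 and 0.886. Cells with fewer UMIs than that were left out: 465 het and 0 WT cells of E12.5, 12 het and 0 WT cells of E14.5, 362 het and 227 WT cells of E16.0, and 540 het and 334 WT cells of E17.5.

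As a level of background, radial glia had a Gad2 UMI in 0.253% of cells at E12.5 (median 8359 UMIs), 0.491% at E14.5, 0.552% at E16.0 and 1.44% at E17.5 (median 6145 UMIs). Endothelial cells had 1 in 159 at E17.5. Interneuron-like cells were Gad2-detected in 34.7%, 80.3%, 71.5% and 65.9% of cells from E12.5 to E17.5, at medians of 3028 UMIs (E17.5) to 7238 UMIs (E12.5), and intermediate progenitors in 0.514%, 1.71%, 4.30% and 6.98%.

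From E14.5 on, each of the other 8 genes had a higher mean detection rate in Gad2-detected cells than in cells without Gad2; stages were not tested against each other. Co-detection of Dlx2 averaged 59.5% ± 8.17 at E14.5, 47.2% ± 7.49 at E16.0 and 49.5% ± 10.1 at E17.5 (n = 8 libraries, cells thinned to 2000 UMIs), against 1.21%, 1.38% and 3.36% of cells without Gad2. Lhx6 was found with Gad2 in 37.9% ± 10.5, 29.4% ± 10.5 and 32.8% ± 10.0, and Gad1 in 28.7% ± 7.54, 17.7% ± 6.75 and 23.0% ± 2.40. Dlx6, whose counts were the lowest of the Dlx genes, was found with it in 5.14% to 7.52%.
At E12.5 Dlx2 was found in 75 of 119 Gad2-detected cells and Dlx5 also in 75, but Lhx6 in 0, pooled over the 8 libraries. This allows a share of up to 2.52% of such cells with an Lhx6 UMI at this depth, by counting error only, and does not limit the share that express the gene. At full depth Lhx6 was found in 1 of 243. Thinned to 2000 UMIs, the mean over the 8 libraries of E12.5 was 42.7% ± 33.2 for Dlx2 (range 0% to 90%). For Dlx5 it was 44.1% ± 31.5 (0% to 75.7%).

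Co-detection differed with the number of Gad2 UMIs in a cell, here counted without thinning. Cells with 2 or more had a median of 7060.5, 5562, 3737 and 3540 UMIs from E12.5 to E17.5. The stages are thus seen at unlike depth. Of cells with 2 or more, 95.8% at E12.5, 92.3% at E14.5, 73.4% at E16.0 and 79.3% at E17.5 had UMIs of at least 3 of the other 8 genes. Of cells with exactly 1 Gad2 UMI, 52.0%, 37.8%, 46.8% and 36.1% had no UMI of any other of the 9. At E16.0 the share with 2 or more Gad2 UMIs and none of the others was 15.7%, the highest of the 4 stages, and 79.9% of the cells with 2 or more Gad2 UMIs at that stage were interneuron-like.

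Co-detection was compared between genotypes over E14.5 to E17.5, the stages with at least 10 Gad2-detected cells in every library. None of the 8 genes differed after adjustment over the 8 (permutation test within stage), and none had an unadjusted p below 0.05. Dlx2 came nearest, with 55.2% in WT and 49.0% in het, a difference of -6.20 percentage points (p = 0.0784, adjusted p = 0.627, permutation test); the het library was above its partner in 2 of 12 pairs. The other 7 differed by -1.48 to 1.77 percentage points.

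The share of interneuron-like cells also differed between pairs. At E14.5 it was 5.17% and 5.31% in M1 (WT and het), 4.05% and 2.55% in M2, 2.23% and 1.32% in F1 and 3.70% and 2.56% in F2. At E16.0 it was 1.98% and 1.11%, 1.98% and 2.95%, 4.80% and 4.0%, and 1.36% and 3.36% in the same order. At E17.5 it was 5.10% and 4.50%, 12.6% and 13.2%, 6.23% and 5.29%, and 5.88% and 5.4%.
The M2 pair of E17.5 held more than 2 times the share of every other library of that stage, in both genotypes. Averaged over the 4 stages the share was 3.72% in WT and 3.52% in het, a difference of -0.195 percentage points (p = 0.780, permutation test within stage), with het higher in 5 of 16 pairs. At single stages the exact permutation p lay between 0.514 and 1. In WT the mean share was 2.53% at E16.0 and 7.44% at E17.5. For the genes called at that step in WT, levels within the class were then as follows. Lhx6 was at 308 ± 118 and 292 ± 29.1 CPM, and Dlx1 at 436 ± 47.6 and 480 ± 92.9 CPM (SD, n = 4). Stages were not tested against each other within the class.

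The E17.5 M2 pair also had a different mix. Cluster 14, the cells with little Lhx6, made up 6.38% of WT M2 and 7.78% of het M2 cells, against 0.930% to 2.50% in the other 6 libraries. Cluster 9, the cells with Lhx6, made up 6.18% and 5.38%, against 3.38% to 4.91%. Cluster 14 was 50.8% and 59.1% of the interneuron-like cells of that pair, 42.5% and 28.6% in F2, 25.0% and 24.1% in M1 and 21.2% and 17.6% in F1. The part of this mix in the pair calls of Dlx1, Dlx2, Dlx5 and Dlx6 at E17.5 was not tested.

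Within interneuron-like cells the levels of the 9 genes varied much less between pairs than over all cells. The class was formed by genes that vary with the 9, so it leaves the share of such cells out of the level. A smaller spread thus follows in part from how the class was made, and the combinations of gene and stage are not independent. Over the 27 combinations of gene and stage from E14.5 on, the highest pair was 1.79 to 6.40 times the lowest over all cells (median 3.08) and 1.08 to 2.27 times within interneuron-like cells (median 1.42). The SD of log2 CPM within a group was smaller within the class in 27 of 27. Without the E17.5 M2 pair the medians were 2.23 and 1.36, and the ratio was smaller within the class in 27 of 27, as it was with that pair. For Gad2 at E17.5 the ratio was 2.40 over all cells and 1.08 within the class, and 1.32 and 1.04 without M2. For Dlx2 it was 6.08 and 1.88, and 3.16 and 1.83 without M2. The value of Dlx2 at E17.5 is the mean of 697 CPM in the M2 pair beside 370 CPM in the M1 pair.
With counts summed over the class in 24 libraries, 3 of the 9 genes differed between pairs by edgeR, Dlx5 (adjusted p = 0.000943), Dlx2 (0.000990) and Dlx6os1 (0.0108), where 7.74% of 8580 genes did. Lhx6 (0.0621) and Dlx6 (0.0635) were not called, nor were Dlx1 (0.159), Slc32a1 (0.193), Gad1 (0.240) and Gad2 (0.705). Without WT or het M2 at E17.5 the count was 2, and without WT M1 or F1 or het M1 or F1 at E16.0 it was 5.

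**Figure D4:**
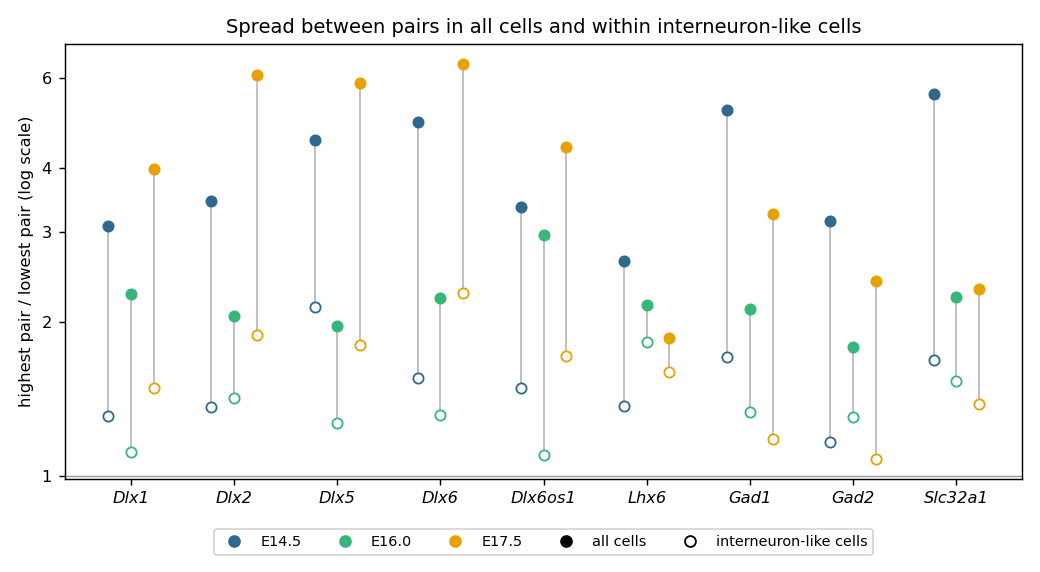
Ratio of the highest to the lowest pair mean (y axis, log scale) for each of the 9 genes at E14.5, E16.0 and E17.5, over all cells (filled) and within interneuron-like cells (open), joined by a grey line. The median ratio is 3.08 over all cells and 1.42 within interneuron-like cells, and 2.23 and 1.36 without the E17.5 M2 pair, which the plot includes.

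Genotype made no called difference within the class either. Of the 9 genes 0 were called, as were 0.0% of 8580 genes, while DESeq2 also called 0. With the pairs in the fit 0 were called too, and 1 of the 9 had an unadjusted p below 0.05. In the fit without pairs, 0 of the 9 and 350 of the 8580 had such a p. Chd8 itself was not called within the class either, with a log2 difference of -0.09. The intervals were narrower than over all cells: the log2 difference was 0.12 for Gad2 (95% interval -0.03 to 0.27), 0.03 for Dlx2 (-0.24 to 0.30) and -0.11 for Lhx6 (-0.36 to 0.14). Over the 9 genes the intervals reached from -0.36 to 0.51. The WT and the het range did not overlap in 2 of 27 combinations of gene and stage, where 3.15% of combinations over all 8580 genes did not. Dlx6os1 at E16.0 was at 303 to 403 CPM in WT and at 443 to 534 CPM in het, and Gad2 at E17.5 at 315 to 388 CPM in WT and at 403 to 504 CPM in het. The cells of cluster 19, in which Dlx6os1 was at 602 ± 61.0 CPM beside 377 ± 56.1 CPM in cluster 13, were 8.70% to 30.8% of the class in het and 0% to 9.96% in WT libraries of E16.0, and their part in the Dlx6os1 difference was not tested. The summed level of the 6 ventral progenitor markers in interneuron-like cells of that stage was 77.1 to 162 CPM in WT and 121 to 267 CPM in het libraries.

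**Figure D5:**
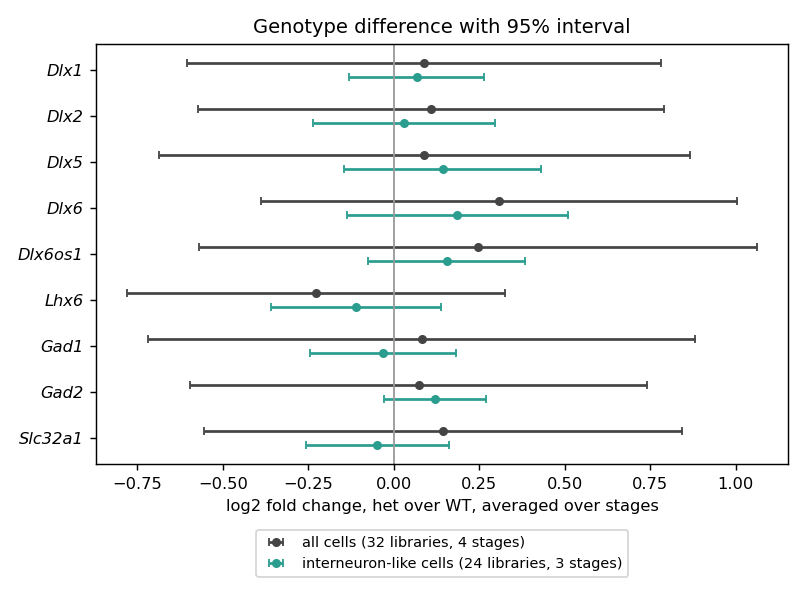
Log2 fold change of het over WT for each of the 9 genes, averaged over stages, with 95% intervals. Dark bars are fits over all cells (32 libraries), green bars fits within interneuron-like cells (24 libraries, E14.5 to E17.5). All intervals include 0, and those within the class are narrower.

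Other genes of the lineage were taken from lists of 41 genes, of which 35 passed the filter on low counts. Between genotypes, averaged over stages, 0 of these 35 were called by edgeR. An unadjusted p below 0.05 was found for 2 of them, both subtype genes, and for 1040 of all 15898 genes. Counts for genes of GABA handling are not reported here. From E12.5 to E14.5 in WT, where 53.3% of all genes were called in either direction, 10 of 13 transcription factors and locus transcripts were called (6 higher, 4 lower), as were 9 of 10 subtype genes (7 higher, 2 lower), 1 of 3 migration receptors (Erbb4, higher) and 1 of 5 upstream ventral factors (Nkx2-1, higher). The 6 with the largest change were Sst (log2 rise 6.58), Nos1 (5.01), Npas1 (4.28), Npy (4.2), Cck (3.83) and Dlx1as (3.17). Sst and Npy encode neuropeptides of medial ganglionic eminence interneurons, and Dlx1as is the antisense partner of Dlx1.
From E14.5 to E16.0 in WT, where 11.7% of all genes were called, 5 of 10 subtype genes were called, all lower, beside 1 of 13 transcription factors and locus transcripts, 1 of 3 migration receptors and 0 of 5 upstream factors. Of the lists, the 6 with the largest change were Sst (log2 difference -2.51), Calb2 (-2.44), Calb1 (-2.26), Reln (-2.15), Ackr3 (-1.14) and, higher, Slc6a11 (2.01). From E16.0 to E17.5, where 17.4% of all genes were called, 8 of 10 subtype genes were called higher, as were 2 of 5 upstream factors, 1 of 3 migration receptors and 5 of 13 transcription factors and locus transcripts, with 1 of those 13 lower. The 6 largest were Olig2 (3.78), Calb2 (3.46), Gsx1 (2.87), Npas1 (2.63), Htr3a (2.49) and Reln (2.49), of which Htr3a, a serotonin receptor, and Npas1 are known from caudal ganglionic eminence interneurons, and Olig2 and Gsx1 from ventral progenitors. Reln and Calb2 are also made by Cajal-Retzius cells, and in these data Cck was among the leading genes of an excitatory neuron cluster (E14.5 cluster 5) and Nos1 of an unnamed one (E17.5 cluster 11). Olig2 was also among the markers used to name oligodendrocyte precursors (89 cells at E17.5) and among the leading genes of the unnamed E17.5 cluster 7. The values of these genes over all cells are thus not those of interneurons alone.

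Genes whose level went up and down with the summed level of the 9 were sought over the 32 libraries, as deviations of log2 CPM from the mean of the 4 libraries of a group, among 9205 genes. The highest Pearson r among genes outside the 9 was that of Sp9 (0.92), an interneuron transcription factor, followed by Dtx1 (0.87), Nrxn3 (0.87), Ap1s2 (0.85), C9orf72 (0.81), Ppp2r2b (0.81), Actl6b (0.79) and Vps26b (0.79). Without E12.5, r was 0.99 for Sp9 and 0.97 for Nrxn3, but 0.80 for Dtx1. The lowest were Hk2 (-0.75), 2700062C07Rik (-0.72), Llph (-0.70) and Khsrp (-0.68). The libraries share depth and cell makeup, so these values describe likeness between the 32 libraries only.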

How the data were processed

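The deposited files hold whole-number UMI counts per gene and cell barcode (10x 3′ v2), per the file headers and the labels' protocols. The submitters' processing notes name mm10, STAR 2.7.9a, STARsolo and Cell Ranger, with no role given; whether counting used strand is not given in the sources used here. Barcodes were dropped below 1000 UMIs or 500 genes, or where over 10% of UMIs were mitochondrial. Doublets were scored per library against simulated doublets (0.8% per 1000 cells assumed) and removed, 5471 of 143697 cells. Cells of each stage were clustered on 2000 variable genes without the 9 members (scikit-learn 1.9.0, leidenalg 0.10.2), and clusters were named from at least 3 markers, again without the members. Counts were summed per library, and per library within interneuron-like cells where at least 3 libraries per genotype had 20 such cells. They were tested with edgeR 4.0.16 (TMM, quasi-likelihood, R 4.3.3) over all genes that passed its filter on low counts, with Benjamini-Hochberg adjustment and a threshold of 0.05; DESeq2 1.42.0 was an alternative. Shares were tested by permuting genotype within stage (100000 resamples). The scripts were tested on simulated data with known changes.

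The members, gene lists and tests were chosen with earlier results of these data known. Other genes are named by rule: called in a comparison, at most 6 per comparison by size of change. The WT and het of a pair are litter- and sex-matched per the labels; deviations from group means correlated above 0.1 between partners in 14 of 16 pairs (range 0.0487 to 0.622 over 15898 genes). Alternatives covered DESeq2 with its own size factors and test, the low-count filter, doublets, thinning, clustering resolution, pairing, and each library left out. Some results on other genes are not reported here.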

Additional observations from a re-analysis of the deposited data

Results flagged for a closer look

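Of 88 groups of 4 libraries checked, 12 had 1 library that stood apart from the other 3 by Dixon's criterion, which chance gives in about 1 in 20 groups. Het M2 at E17.5 accounted for several of them: Dlx6 was at 8.84 CPM (others 1.18 to 1.95), Dlx6os1 at 63.8 CPM (15.4 to 22.8), Gad2 at 43.4 CPM (17 to 20.4) and Slc32a1 at 9.87 CPM (3.75 to 4.23). Its share of Gad2-detected cells was 8.34% (others 3.28% to 3.71%) and its share of interneuron-like cells 13.2% (4.50% to 5.4%). Its WT partner stood apart in the share of interneuron-like cells, 12.6% (5.10% to 6.23%).

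At E16.0, WT F1 stood above the other WT libraries in Dlx5 (13.9 CPM, others 4.74 to 6.26) and Dlx6 (1.99 CPM, others 0.629 to 0.756). Het M1 of that stage stood below the others in Gad2 (7.51 CPM, others 12.3 each) and in the share of Gad2-detected cells (1.18%, others 2.27% to 2.46%). At E14.5, Dlx6os1 was at 13.7 CPM in het M1 (others 3.89 to 5.42).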

How the results depend on the processing

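No gene of the 9 was called between genotypes under any alternative run. With the replicate block, which pairs the litter-matched libraries, 0 were called in each genotype comparison, the Gad2-detected share differed by -0.0324 percentage points (p = 0.865, permutation test), the interneuron-like share by -0.195 (p = 0.518, permutation test), and 0 of 8 genes differed in co-detection. The count for WT E17.5 against E16.0 was 2, but 1 in het libraries, 1 without the E17.5 M2 pair, and 1 to 5 with a library left out; that for WT E14.5 against E12.5 was 4 to 8 with a library left out. The pair count within stage was 7, but 4 with DESeq2, 3 for pairs of the same sex, 1 without the M2 pair, and 1 to 9 with a library left out. By stage, pair counts at E12.5 were 5 without a low-count filter and 0 to 6 with a library left out. At E14.5 they were 2 with DESeq2, 2 with doublets kept, 6 without the filter, 0 by label code start, 0 without the M2 pair and 0 to 7 with a library left out. At E16.0 they were 0 to 1 with a library left out, and at E17.5 they were 2 with DESeq2, 8 without the filter, 0 without the M2 pair and 0 to 7 with a library left out. Within interneuron-like cells the pair count was 6 without the filter, 5 at a clustering resolution of 0.5 and 2 to 5 with a library left out. The difference in Gad2-detected share was 0.0733 percentage points with at least 2 UMIs required, 0.0861 when thinned to 1000 UMIs, and -0.333 to 0.204 with a library left out; that in interneuron-like share was -0.701 to 0.231 with a library left out. The cause of these shifts was not tested. For most of these alternative fits the share of all genes called is not given here, so the member counts cannot be set against it. The same-sex comparison, the one without the M2 pair and the one on E14.5 to E17.5 were chosen after seeing the data. Counting error weighs on low counts, such as the 41 Lhx6 UMIs at E12.5.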
